A study of Mus musculus with 32 samples.

Results

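Chemokines are small secreted proteins that draw leukocytes along a concentration gradient by binding receptors on their surface. CC chemokines mostly act on monocytes, macrophages and eosinophils, and CXC chemokines on neutrophils, lymphocytes and progenitor cells. In skeletal muscle they come from resident macrophages, fibroblasts, vessel cells and the fibres, and they are known for the recruitment of monocytes after injury. The 9 chemokine genes described here were listed by symbol: the monocyte attractants *Ccl2*, *Ccl7* and *Ccl8*, the rodent CC genes *Ccl6* and *Ccl9*, the eosinophil attractant *Ccl11* (eotaxin), the neutrophil attractant *Cxcl1*, the progenitor and lymphocyte attractant *Cxcl12*, and *Cxcl14*, a chemokine made in healthy epithelia. All 9 were found among the 54838 genes of the deposited table.

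RNA came from the tibialis anterior (TA) muscle of wild-type (WT) mice and of mice without a working *Mtm1* gene (*Mtm1* KO), a model of X-linked myotubular myopathy. *Mtm1* encodes a lipid phosphatase, and the KO allele lacks exon 4. Both genotypes were on the C57BL6/J background, onto which the line had been moved from 129S2PAS, and were compared at postnatal day 1 (P1), P14, P21 and P35 with *n*=4 libraries each. The WT mice were without an added allele or treatment, so each age pits the KO allele against its absence. The study names WT littermates for its phenotype and muscle structure work, and does not say this of the sequenced mice.

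The 32 libraries held 49321035 to 85631408 counts. Levels are given as CPM (counts scaled to a common library size) on a TMM scale common to all libraries, and a gene passed the test where edgeR's quasi-likelihood test gave a Benjamini-Hochberg adjusted *P*-value under 0.01 with a change of over 1.5-fold. *Mtm1* itself lay at 5.26 to 6.02 CPM in WT and 2.32 to 3.91 CPM in KO at P1, and at 18.9 to 24.9 CPM in WT and 2.64 to 4.51 CPM in KO at the later ages, without overlap. The log2 difference was -0.98 at P1, which did not pass (adjusted *P*-value 0.067), and *Mtm1* fell by 2.34 to 2.71 later. KO P1 replicate 4 held the 3.91 CPM, beside 2.32, 2.40 and 2.45 CPM in replicates 1, 2 and 3. That library also had the lowest sum of muscle fibre markers in its group, 19357 CPM beside 27226, 29850 and 37694 CPM. The counts are per gene, so which exons of *Mtm1* gave those in KO could not be seen. TMM assumes that most genes keep their share. With library totals in its place, the median log2 difference over all genes was 0.20 at P21 and 0.44 at P35 for KO against WT, and -0.85 for WT P14 against P1, in place of 0.01, 0.04 and -0.08. The split of calls moved with it, from 482 higher and 227 lower to 1052 and 105 at P21, from 1324 and 1172 to 4350 and 326 at P35, and from 4304 and 5297 to 1598 and 10025 for WT P14 against P1. In bulk muscle, fewer cells of a type and less RNA per cell cannot be told apart.

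Of these genes, 6 lie on chromosome 11 (GRCm38). *Ccl2* (82035571 to 82037453), *Ccl7* (82045712 to 82047525), *Ccl11* (82057823 to 82062955) and *Ccl8* (82115185 to 82116799) follow each other on the plus strand, with 8258, 10297 and 52229 bases between them. *Ccl9* (83572919 to 83578636) and *Ccl6* (83587882 to 83593087) form a pair on the minus strand, 9245 bases apart and 1456119 bases beyond *Ccl8*. *Cxcl1* lies on chromosome 5 (90891241 to 90893115, plus strand), *Cxcl12* on chromosome 6 (117168535 to 117181367, plus strand) and *Cxcl14* on chromosome 13 (56288643 to 56296551, minus strand). *Gm17268*, which overlaps *Ccl2* on the other strand, had a count of 0 in every library, and *E230016K23Rik*, opposite *Ccl6*, reached at most 0.232 CPM.

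Promoters of 6 of the 9 genes, *Ccl6*, *Ccl8*, *Ccl9*, *Cxcl1*, *Cxcl12* and *Cxcl14*, were matched by symbol in RefSeq (GRCm38.p6). *Ccl2*, *Ccl7* and *Ccl11* had no entry. The 250 bases before the start of *Ccl6* (chr11:83593088-83593337, minus strand) and *Ccl9* (chr11:83578637-83578886, minus strand) are shown because these neighbours passed the test together at P35. The capitals mark the runs of 10 or more letters that both windows hold.
Ccl6: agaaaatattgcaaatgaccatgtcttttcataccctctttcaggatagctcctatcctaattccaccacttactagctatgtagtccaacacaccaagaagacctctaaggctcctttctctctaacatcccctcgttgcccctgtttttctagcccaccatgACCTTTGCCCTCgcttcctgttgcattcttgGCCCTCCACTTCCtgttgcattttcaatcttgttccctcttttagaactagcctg
Ccl9: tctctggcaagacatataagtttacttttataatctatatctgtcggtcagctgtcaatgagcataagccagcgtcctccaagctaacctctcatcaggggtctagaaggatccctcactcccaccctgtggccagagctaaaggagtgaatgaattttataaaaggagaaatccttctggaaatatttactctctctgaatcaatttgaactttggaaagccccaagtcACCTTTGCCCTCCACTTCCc
Both shared runs lie near the start of *Ccl9*, the 12-letter run 20 bases and the 13-letter run 14 bases before it, so that they overlap there. In *Ccl6* the same letters begin 86 and 55 bases before the start. The same window of *Cxcl1* (chr5:90890995-90891244, plus strand) follows, with capitals on its match to the kB motif that NF-kB factors bind.
Cxcl1: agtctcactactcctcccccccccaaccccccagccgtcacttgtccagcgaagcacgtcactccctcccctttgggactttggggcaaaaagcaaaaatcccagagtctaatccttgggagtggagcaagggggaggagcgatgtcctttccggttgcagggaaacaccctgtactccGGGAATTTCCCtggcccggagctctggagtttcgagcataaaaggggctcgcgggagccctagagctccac

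Each motif was searched on both strands of the 250 bases. The kB motif was matched in *Cxcl1*, where the matches on the 2 strands overlap 71 and 70 bases before the start, and in *Ccl9*, 35 bases before it on the other strand. It was held by 7.25% of the 32851 promoters in the table. TATAAA was found in *Ccl8* 32 bases before the start and in *Ccl9* at 92 bases on the plus and at 94 and 224 bases on the other strand, the matches at 92 and 94 bases overlapping, and in 12.4% of all promoters. TGANTCA, the AP-1 motif, occurred in *Ccl9* 53 bases before the start and in 6.75% of all promoters. CCAAT, in 33.8% of all promoters, was matched in no window of the 6 genes, and the other 3 motifs were not matched in the windows of *Ccl6*, *Cxcl12* and *Cxcl14*.

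Levels were compared between genes only per kilobase of exon, joined over all transcripts of a gene. This length was 8176 bases for *Cxcl12* and 511 to 3045 bases for the others, and the place of *Cxcl12* rests on it. In WT muscle at P35, *Cxcl14* stood at 37.2 ± 6.50 CPM per kb (SD, *n*=4 here and below), *Ccl11* at 18.0 ± 0.747 and *Cxcl12* at 17.7 ± 1.44. The level per kb was 2.70 ± 0.664 for *Ccl6*, 1.54 ± 0.331 for *Ccl9* and 0.821 ± 0.228 for *Ccl8*. *Ccl7* (0.323 ± 0.120), *Ccl2* (0.320 ± 0.116) and *Cxcl1* (0.126 ± 0.0312) were the lowest. At P1 the order was another: behind *Cxcl14* (15.1 ± 4.67) and *Cxcl12* (12.8 ± 1.74) came *Ccl7* (4.07 ± 0.931), *Ccl9* (4.03 ± 1.06) and *Ccl2* (3.32 ± 0.526), and *Ccl11* was at 1.80 ± 0.233 CPM per kb.

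**Figure D1:**
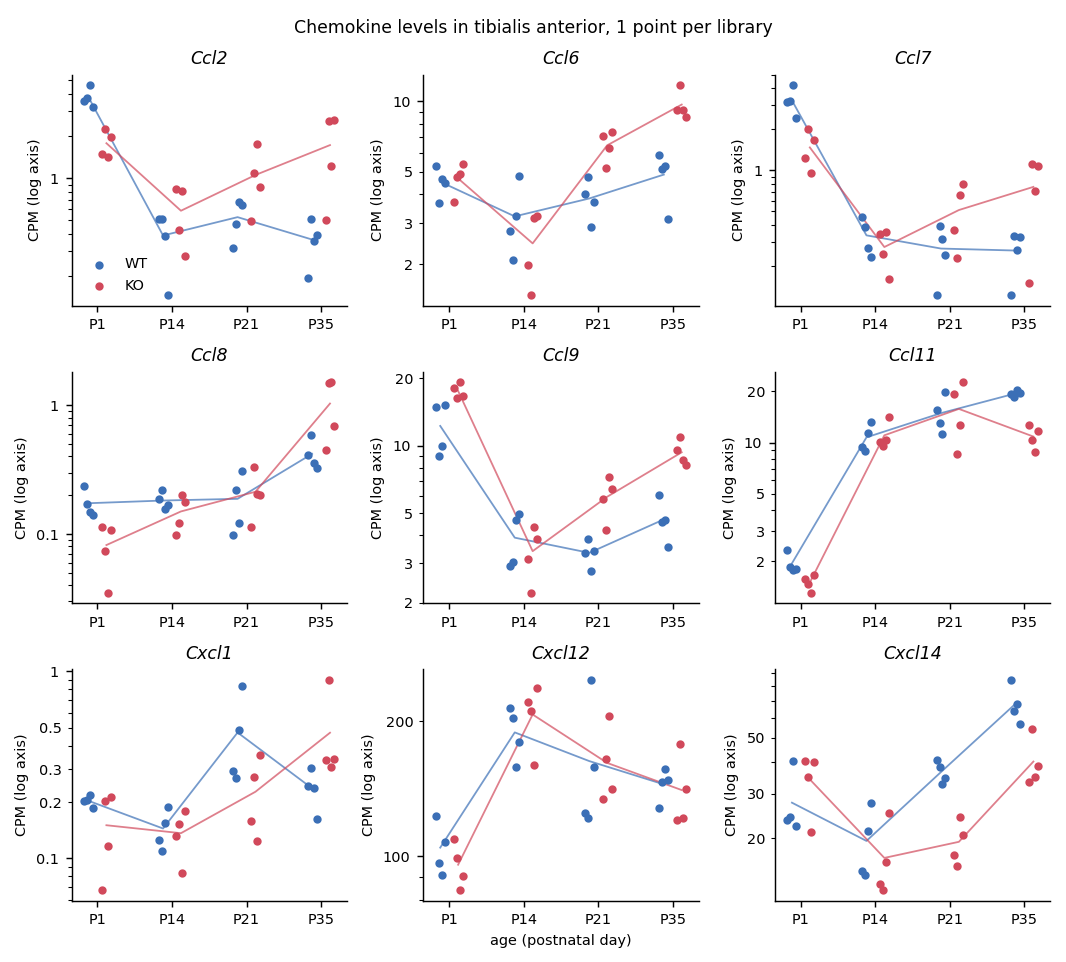
Level of each chemokine gene in CPM (vertical log axis, with its own range in each panel) against age for WT (blue) and *Mtm1* KO (red), 1 point per library, with lines through the group means. In WT, *Ccl2* and *Ccl7* dropped and *Ccl11* rose between P1 and P14, and at P35 the KO points of *Ccl6* and *Ccl9* lie above and those of *Ccl11* and *Cxcl14* below all WT points.

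The WT libraries give the course of each gene as the muscle matures. From P1 to P14, 3 of the 9 genes fell (30.4% of the genes tested fell) and 2 rose (24.7% rose), 5 of 9 beside a share of 55.1% over all genes tested. *Ccl2* was at 3.56, 3.72, 4.62 and 3.21 CPM at P1 and at 0.514, 0.510, 0.388 and 0.146 CPM at P14. *Ccl7* was at 3.18, 3.23, 4.23 and 2.41 CPM and then at 0.452, 0.382, 0.272 and 0.230 CPM. Neither gene's ages overlapped, and the log2 changes were -3.26 (SE 0.29, adjusted *P*-value 5.12e-06) for *Ccl2* and -3.27 (SE 0.25, adjusted *P*-value 2.01e-06) for *Ccl7* in edgeR.

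*Ccl9*, a ligand of Ccr1, also fell in WT. It went from 15.0, 9.04, 9.95 and 15.2 CPM at P1 to 2.90, 3.04, 4.66 and 4.99 CPM at P14, without overlap, a log2 change of -1.67 (SE 0.24, adjusted *P*-value 1.14e-04). *Ccl11* took the other way. Its WT libraries held 2.32, 1.87, 1.79 and 1.82 CPM at P1 and 9.41, 8.96, 11.4 and 13.1 CPM at P14, a log2 change of 2.45 (SE 0.15, adjusted *P*-value 5.19e-07) that stayed at 1.66 with library totals. *Cxcl12* went from 90.8 to 123 CPM at P1 to 158 to 214 CPM at P14 (log2 change 0.84, SE 0.12, adjusted *P*-value 1.16e-04), which shrank to 0.08 and did not pass with library totals. With library totals, where far more genes fell than rose, *Ccl6*, *Cxcl1* and *Cxcl14* also passed downward (log2 changes -1.31, -1.28 and -1.31). The median over all genes was -0.85 there. Neutrophil markers summed to 72.0 to 431 CPM in WT at P1, of which *Mmp9* alone gave 47.2 to 293 CPM. Keratinocyte markers summed to 2236 to 7047 CPM in WT at P1 and to 11.3 to 16.5 CPM in WT at P21 and P35. The part of both cell types in the change from P1 was not tested.

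Between P14 and P21, 0 of the 8 tested genes passed in WT (5.53% of all genes tested did). The unadjusted *P*-value was under 0.05 for 3 of them (39.6% of all genes tested), and DESeq2 called 2 (8.26%). These were *Cxcl14*, at 14.4 to 27.5 CPM and then 32.8 to 40.6 CPM (log2 difference 0.89, SE 0.20, adjusted *P*-value 0.012 in edgeR), and *Cxcl1*, at 0.109 to 0.188 CPM and then 0.270 to 0.835 CPM (log2 difference 1.70, SE 0.42, adjusted *P*-value 0.018 in edgeR). Blood markers summed to 442 to 755 CPM in WT at P14, 3170 to 4350 CPM at P21 and 189 to 584 CPM at P35. WT P21 replicate 4, the highest in *Cxcl1*, also had the highest neutrophil sum of that group (4.44 CPM). The part of blood cells in these steps was not tested. From P21 to P35 only *Cxcl14* passed, 1 of 9 beside 2.45% of all genes tested. Its WT libraries stood at 40.6, 38.1, 32.8 and 34.6 CPM at P21 and at 84.5, 63.5, 67.5 and 56.5 CPM at P35, a log2 change of 0.88 (SE 0.12, adjusted *P*-value 0.0036 in edgeR). The call was lost without WT P21 replicate 1, 3 or 4 or WT P35 replicate 2, with adjusted *P*-values of 0.010 to 0.013. These steps share their middle ages and are not independent of each other.

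At P1, 0 of the 9 genes passed between KO and WT in edgeR (0.0442% of all genes tested did), with 5 at an unadjusted *P*-value under 0.05 (10.9% of all genes tested), and DESeq2 called 2 (0.552%). The differences of the monocyte attractants had the opposite sign to those at P35. *Ccl2* was at 3.21 to 4.62 CPM in WT mice against 1.49, 2.24, 1.40 and 1.96 CPM in KO mice. The libraries of the genotypes did not overlap, with a log2 difference of -1.08 (SE 0.18, adjusted *P*-value 0.059 in edgeR and 4.86e-06 in DESeq2). *Ccl7*, which like *Ccl2* binds Ccr2, was at 2.41 to 4.23 CPM in WT mice against 1.23, 2.02, 0.960 and 1.68 CPM in KO mice. Its log2 difference was -1.13 (SE 0.25, adjusted *P*-value 0.13 in edgeR and 0.0011 in DESeq2). The log2 difference of *Ccl8* was -1.01 (SE 0.35, adjusted *P*-value 0.34) at 3 to 22 counts per library.

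*Ccl9* was at 9.04 to 15.2 CPM in WT and 16.3 to 19.2 CPM in KO at P1 (log2 difference 0.53, SE 0.17, adjusted *P*-value 0.32). *Cxcl14* stood at 23.7, 24.2, 40.4 and 22.3 CPM in WT mice against 40.5, 34.8, 21.2 and 40.1 CPM in KO mice, with overlap. Keratinocyte markers summed to 2772, 2236, 7047 and 2925 CPM in the same WT libraries and to 5757, 5187, 1950 and 4209 CPM in the KO libraries, so in each genotype the library highest in *Cxcl14* was also the highest in these markers. All 12 keratinocyte markers had a log2 difference above 0 at P1 and none passed. Macrophage markers summed to 219 to 256 CPM in WT and 206 to 218 CPM in KO. All 8 neutrophil markers had a log2 difference below 0, with overlap between the genotypes, and none passed. The part of these cells in the P1 differences was not tested.

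At P14 none of the 7 tested genes passed (0.0318% of all genes tested did), 0 had an unadjusted *P*-value under 0.05 (6.82% of all genes tested), and DESeq2 called 0 (0.285%). *Ccl8* and *Cxcl1*, at 5 to 12 counts per library, were below the filter on low counts. *Ccl2* had the largest difference, 0.57 on the log2 scale (SE 0.44, adjusted *P*-value 0.91), and WT and KO overlapped in all 9 genes. *Ccl11* was at 8.96 to 13.1 CPM in WT and 9.57 to 14.1 CPM in KO.

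At P21, 2 of the 8 tested genes passed (4.67% of all genes tested), *Ccl9* upward (3.18% rose) and *Cxcl14* downward (1.5% fell). *Ccl9* was at 3.32, 3.84, 2.78 and 3.41 CPM in WT mice against 5.78, 4.22, 7.28 and 6.45 CPM in KO mice. The lowest KO library lay just above the highest WT library, and the log2 change was 0.84 (SE 0.17, adjusted *P*-value 0.0093). Its call was lost when any of 7 of the 8 libraries was left out, with an adjusted *P*-value of at most 0.032, and stood only without KO P21 replicate 2. Its neighbour *Ccl6* was at 4.0, 4.75, 2.87 and 3.7 CPM in WT mice against 7.09, 5.16, 6.30 and 7.36 CPM in KO mice, again without overlap. The log2 difference of *Ccl6* was 0.77 (SE 0.16), with an adjusted *P*-value of 0.011 in edgeR and 3.82e-04 in DESeq2.

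*Cxcl14* fell in KO at P21. It was at 40.6, 38.1, 32.8 and 34.6 CPM in WT mice against 17.1, 15.5, 24.2 and 20.5 CPM in KO mice, a log2 change of -0.90 (SE 0.14, adjusted *P*-value 0.0023) that was -0.71 with library totals and passed there too. It also passed without each of the 8 libraries in turn. Its KO libraries at P21 lay within the range of the KO libraries at P14, 12.5 to 25.1 CPM. *Ccl2* (log2 difference 1.01, SE 0.39, adjusted *P*-value 0.097), *Ccl7* (0.94, SE 0.45, adjusted *P*-value 0.17) and *Cxcl1* (-1.04, SE 0.45, adjusted *P*-value 0.13) overlapped between the genotypes, and *Ccl8* was below the filter. At this age blood markers summed to 3170 to 4350 CPM in WT and 1622 to 3280 CPM in KO. The part of blood in the P21 differences was not tested.

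At P35, 5 of the 9 genes passed (16% of all genes tested did). *Ccl2*, *Ccl6* and *Ccl9* rose in KO (8.49% of the genes tested rose), and *Ccl11* and *Cxcl14* fell (7.52% fell). The median log2 difference of the 9 genes was 1.02, beside 0.04 over all genes tested. *Ccl6* was at 5.89, 5.10, 5.27 and 3.14 CPM in WT mice against 9.22, 11.8, 9.19 and 8.61 CPM in KO mice. *Ccl9* was at 6.01, 4.59, 4.65 and 3.55 CPM in WT mice against 9.60, 11, 8.67 and 8.23 CPM in KO mice. All 4 KO libraries lay above all WT libraries for both genes, which changed alike, by 1.02 on the log2 scale (*Ccl6* SE 0.19, adjusted *P*-value 0.0025, and *Ccl9* SE 0.17, adjusted *P*-value 0.0013). Both calls held without each of the 8 libraries in turn.

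*Ccl2* had the largest fitted fold among the 9 genes at P35. Its WT libraries held 0.195, 0.515, 0.356 and 0.392 CPM and its KO libraries 0.501, 2.54, 1.23 and 2.62 CPM. KO replicate 1 lay within the WT range and the other 3 above it. The log2 change was 2.25 (SE 0.52, 4.77-fold, adjusted *P*-value 0.0075), at 8 to 22 counts per WT library. The call was lost without any of the 4 WT libraries or KO replicate 2, 3 or 4, with adjusted *P*-values of up to 0.023, and stood without KO replicate 1 (log2 change 2.55, adjusted *P*-value 0.0014). *Ccl7* went with it, at 0.122, 0.328, 0.261 and 0.323 CPM in WT mice against 0.150, 1.11, 0.704 and 1.07 CPM in KO mice, where replicate 1 was again the low one. The log2 difference of *Ccl7* was 1.57 (SE 0.56, adjusted *P*-value 0.048), and without KO replicate 1 it was 1.90 and passed (adjusted *P*-value 0.0034), as it did with all 32 libraries in 1 fit (1.54, adjusted *P*-value 0.0077).

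*Ccl8* stood at 0.414, 0.585, 0.356 and 0.323 CPM in WT mice against 0.451, 1.47, 1.5 and 0.695 CPM in KO mice at P35 (log2 difference 1.32, SE 0.41, adjusted *P*-value 0.029), and it too passed without KO replicate 1 (1.56, adjusted *P*-value 0.0076), with library totals (1.74, adjusted *P*-value 0.0067) or with all 32 libraries in 1 fit (1.30, adjusted *P*-value 0.0041). *Cxcl1* was at 0.243, 0.304, 0.237 and 0.161 CPM in WT mice against 0.334, 0.900, 0.306 and 0.339 CPM in KO mice, which did not overlap by a narrow margin (log2 difference 1.02, SE 0.43, adjusted *P*-value 0.082). Without KO replicate 2 the difference of *Cxcl1* was 0.48 (adjusted *P*-value 0.22). That library also held the highest sum of neutrophil markers, 24.3 CPM beside 0.401 to 4.92 CPM in the other KO libraries, of which *Mmp9* alone gave 22.6 CPM and *S100a8* 0.546 CPM. Its part in the *Cxcl1* value was not tested.

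*Ccl11* was even across WT at P35, at 19.3, 18.5, 20.5 and 19.6 CPM, and lay at 12.7, 10.3, 8.74 and 11.6 CPM in KO. It fell by 0.82 on the log2 scale (SE 0.12, adjusted *P*-value 6.50e-04), and by 0.42 with library totals, under the 1.5-fold minimum (adjusted *P*-value 0.0093), where the median gene stood at 0.44. The call held without each of the 8 libraries. *Cxcl14* was at 84.5, 63.5, 67.5 and 56.5 CPM in WT mice against 33.3, 54.1, 34.7 and 38.5 CPM in KO mice. It fell by 0.73 (SE 0.17, adjusted *P*-value 0.0084), and by 0.32 with library totals, which did not pass (adjusted *P*-value 0.16). The *Cxcl14* call was lost without WT P35 replicate 1, 2 or 3 or KO P35 replicate 1, 3 or 4, with adjusted *P*-values of at most 0.025, with a replicate block (adjusted *P*-value 0.015), and with all 32 libraries in 1 fit (-0.76, adjusted *P*-value 0.011).

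**Figure D2:**
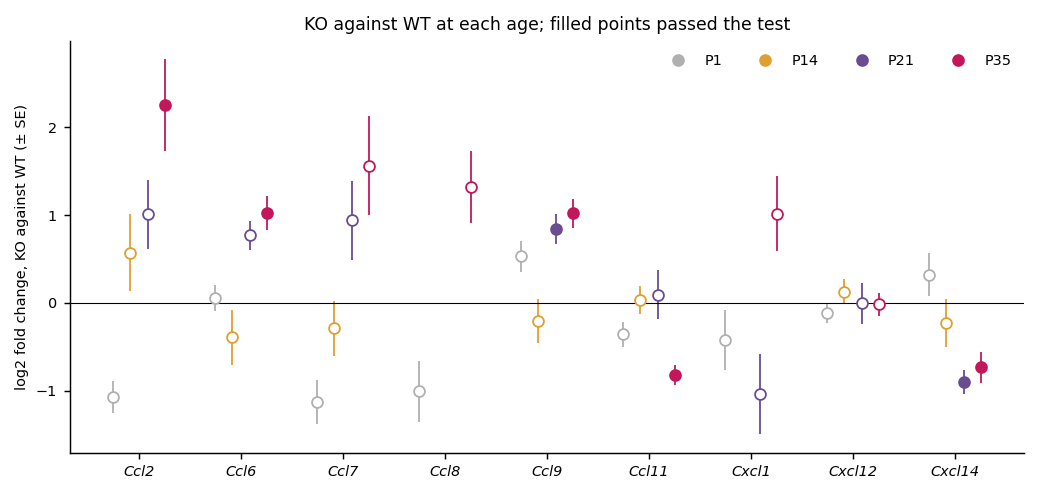
Log2 fold change of KO against WT with its standard error for each chemokine gene at P1 (grey), P14 (orange), P21 (violet) and P35 (magenta), where filled points passed the test. *Ccl9* and *Cxcl14* are filled at P21, *Ccl2*, *Ccl6*, *Ccl9*, *Ccl11* and *Cxcl14* at P35, and *Cxcl12* stays within 0.13 of 0 at all 4 ages.

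*Cxcl12*, the ligand of Cxcr4 and Ackr3, was at 128, 146, 156 and 148 CPM in WT mice against 121, 178, 122 and 142 CPM in KO mice at P35, with overlap. The log2 difference was -0.02 with a 95% interval of -0.31 to 0.27. At P21 the interval ran from -0.53 to 0.52, at P14 from -0.18 to 0.44 and at P1 from -0.38 to 0.15. On the TMM scale a change of over 1.5-fold lay outside the interval at each age. With library totals the P35 difference was 0.39 (adjusted *P*-value 0.041), close to the median of all genes.

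**Figure D3:**
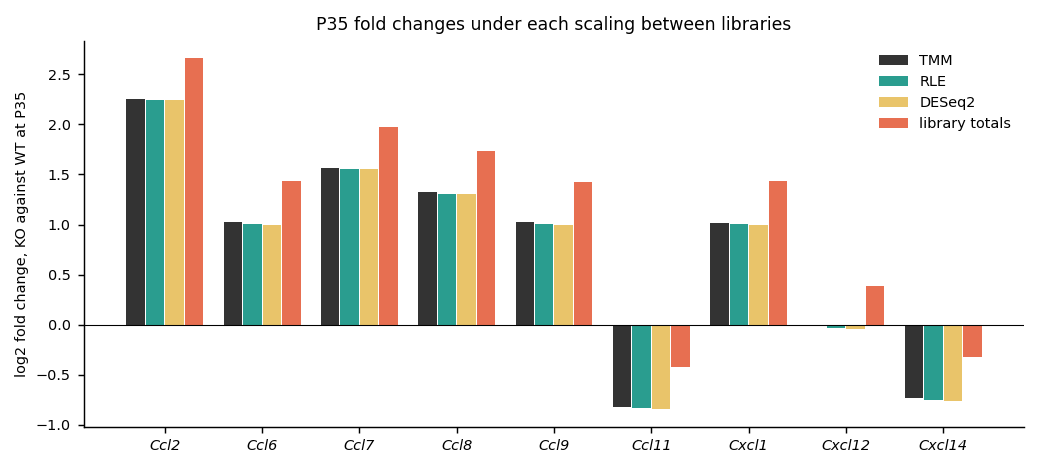
Log2 fold change of KO against WT at P35 for each chemokine gene (bars from 0) under 4 scalings, TMM (black), RLE (green), DESeq2 (yellow) and library totals (orange). TMM, RLE and DESeq2 differ little, whereas library totals move every gene upward, *Ccl11* from -0.82 to -0.42 and *Cxcl12* from -0.02 to 0.39.

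Whether the KO effect itself differed between consecutive ages was tested over all 32 libraries, and 0 of the 9 genes passed at any step (0.0161% of all genes tested passed from P1 to P14, 0.425% from P14 to P21 and 0.463% from P21 to P35). DESeq2 also called 0 at each step, beside 0.0482%, 1.32% and 1.91% of all genes tested. At an unadjusted *P*-value under 0.05 there were 2 genes from P1 to P14, 2 from P14 to P21 and 2 from P21 to P35, beside 6.46%, 12.9% and 17.4% of all genes tested. From P14 to P21 the KO effect on *Ccl6* differed by 1.14 (SE 0.33, adjusted *P*-value 0.085) and that on *Ccl9* by 1.03 (SE 0.30, adjusted *P*-value 0.089). From P21 to P35 the effect on *Cxcl1* differed by 2.04 (SE 0.58, adjusted *P*-value 0.057) and that on *Ccl11* by -0.92 (SE 0.29, adjusted *P*-value 0.082). The effect on *Ccl2* differed by 1.66 between P1 and P14 (SE 0.59, adjusted *P*-value 0.61).

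Across the 8 groups, each gene had its own order of levels. *Ccl2* was highest in WT at P1 (3.78 ± 0.598 CPM), followed without overlap by KO at P1 (1.77 ± 0.398), KO at P35 (1.72 ± 1.03) and KO at P21 (1.05 ± 0.532), and the neighbours below the first did not separate from each other. *Ccl7* kept the same first 4 groups. *Ccl6* was highest in KO at P35 (9.69 ± 1.40 CPM), which lay above the next group, KO at P21 (6.48 ± 0.986), in every library. *Ccl9* was highest in KO at P1 (17.6 ± 1.33) and WT at P1 (12.3 ± 3.24), then in KO at P35 (9.37 ± 1.21). *Ccl11* was highest in WT at P35 (19.5 ± 0.808) and lowest in KO at P1 (1.5 ± 0.149), and KO at P35 (10.8 ± 1.72) ranked between KO (11 ± 2.09) and WT (10.7 ± 1.93) at P14. *Cxcl14* was highest in WT at P35 (68.0 ± 11.9), above KO at P35 (40.2 ± 9.54) in every library. No neighbours separated for *Cxcl12* and *Ccl8*.

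Replicates of a group also varied together in some of these genes. After the group means were taken off, the log2 CPM of *Ccl6* and *Ccl9* correlated with r = 0.79 over the 32 libraries, and those of *Ccl2* and *Ccl7* with r = 0.78. For *Ccl2* and *Ccl9* the value was -0.23, and for *Ccl6* and *Ccl7* -0.06. *Cxcl14* correlated with the summed keratinocyte markers (r = 0.59) and with *Ccl6* (r = 0.59) in the same way. In both genotypes at P1 and P14 and in WT at P21, the library highest in *Cxcl14* was also highest in the keratinocyte sum. In KO at P21 and in both genotypes at P35 it was the lowest in that sum. *Ccl2* correlated with the summed fibroblast (r = 0.55) and macrophage markers (r = 0.32), and *Ccl7* with the summed macrophage (r = 0.56) and fibroblast markers (r = 0.47). For *Ccl6* and *Ccl9* with the macrophage markers the values were 0.35 and 0.34. These points share depth and scaling within each library and are given as a description.

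**Figure D4:**
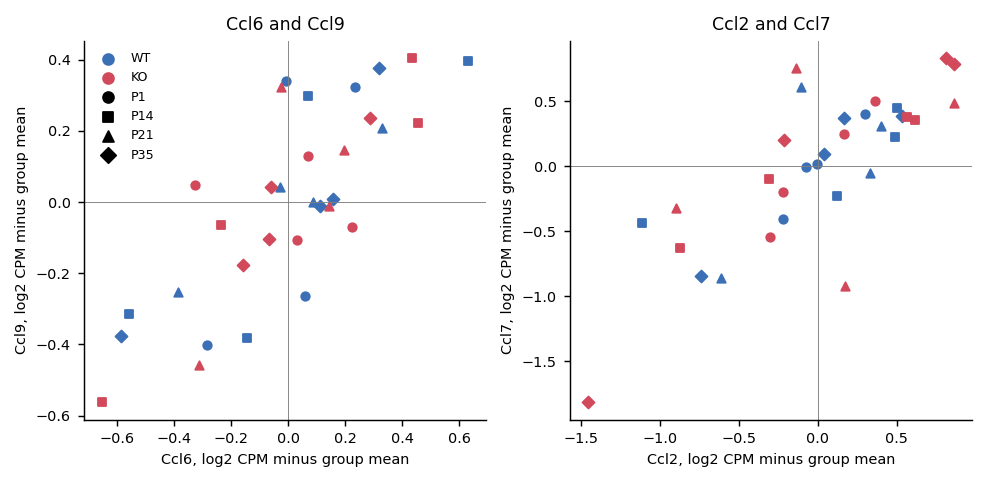
Deviation of each library from its group mean in log2 CPM, *Ccl9* against *Ccl6* (left) and *Ccl7* against *Ccl2* (right), with WT blue, KO red and the ages by symbol (P1 circle, P14 square, P21 triangle, P35 diamond). The points rise along the diagonal in both panels (r = 0.79 and 0.78 over 32 libraries), and the lowest point on the right is KO P35 replicate 1.

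Over all 32 libraries, without removal of group means, the genes most like *Ccl2* were *Tnfrsf11b* (r = 0.92, and 0.77 within groups), *Ccl7* (0.91 and 0.78) and *Has1* (0.91 and 0.66). For *Ccl7* they were *Lrrc25*, *Cd53* and *C3ar1* (0.92 to 0.93, and 0.69 to 0.71 within groups). For *Ccl9* they were *Mt1*, *Npc2* and *Ms4a6c* (0.92 to 0.94, and 0.45 to 0.70), and for *Ccl6* they included *Emd* and *Gsn* (both 0.84, and 0.54 and 0.50 within groups). *Ccl11* followed *Shld2* (0.99, and 0.80 within groups), *Zfp933* and *Clcn1* (both 0.98). *Cxcl14* followed *Slc30a2*, *Gsto1* and *Xdh* (0.86 to 0.87), *Cxcl12* followed *Rflnb*, *Igfbp7* and *Tm4sf1* (0.85 to 0.86), *Ccl8* followed *Orai3*, *Itpa* and *Zfand2a* (0.84 to 0.85), and *Cxcl1* followed *Trmt11*, *Rabif* and *Apod* (0.66 to 0.70).

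Of the 31 other chemokine genes listed, 11 were tested at P21 and 13 at P35. *Cxcl10*, an interferon-inducible T cell attractant, was the 1 called at P21, where 3.18% of all genes tested rose and 1.5% fell. It was at 0.0737 to 0.217 CPM in WT and 1.62 to 2.24 CPM in KO (log2 change 3.74, SE 0.27, adjusted *P*-value 8.28e-05). At P35 it rose again (2.77, SE 0.39, adjusted *P*-value 6.50e-04), with *Cx3cl1*, a membrane-bound chemokine of endothelium, at 0.998 to 2.67 CPM in WT and 11.2 to 25.1 CPM in KO (3.31, SE 0.33, adjusted *P*-value 1.43e-04). *Ccl27a* rose (0.72) and *Cxcl9* fell (-1.19), 3 up and 1 down of 13, beside 8.49% and 7.52% of all genes tested, with a median of 0.51. *Ccl27a* has near-identical copies, so its count is uncertain. *Ccl26* and 1 of the 2 genes named *Ccl19* had a count of 0 in all libraries.

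Among 23 chemokine receptor genes, 0 of 10 tested passed at P21, where 4.67% of all genes tested did. At P35, 3 of 12 rose (8.49% of all genes tested) and 2 fell (7.52%), with a median of 0.69. *Ccr2*, the monocyte receptor of *Ccl2* and *Ccl7*, was at 1.95, 3.44, 3.7 and 3.51 CPM in WT mice against 6.56, 13.6, 11 and 10.9 CPM in KO mice (log2 change 1.76, SE 0.25, adjusted *P*-value 7.05e-04). KO replicate 1 was the lowest KO library here too, but above all WT libraries. *Cx3cr1*, the receptor of *Cx3cl1*, rose by 1.97 (SE 0.34, adjusted *P*-value 0.0018) and *Cxcr6* by 3.42 (SE 0.59, adjusted *P*-value 0.0018), the latter from 1 to 6 counts per WT library. *Cxcr4*, the receptor of *Cxcl12*, fell from 4.19 to 9.69 CPM in WT to 2.62 to 4.06 CPM in KO (-1.23, SE 0.26, adjusted *P*-value 0.0052), and *Ccrl2* fell by 0.84 on the log2 scale. Chosen for their ligands after the values were seen, *Ccr1* had a log2 difference of 0.94 (SE 0.34, adjusted *P*-value 0.050), and *Ccr3*, the receptor of *Ccl11*, held 0 to 3 counts and *Cxcr2*, that of *Cxcl1*, 0 to 6 counts per library at P35, below the filter.

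The list of 19 cytokine, NF-kB and STAT3 pathway genes held inducers of chemokine genes and also the inhibitors *Nfkbia*, *Tnfaip3* and *Socs3*. Of these genes, 4 of 14 tested rose at P21 (3.18% of all genes tested) and 4 at P35 (8.49%). None fell, and the medians were 0.37 and 0.39. *Nfkb2*, a subunit of noncanonical NF-kB, rose by 1.68 at P21 (SE 0.13, adjusted *P*-value 1.44e-04) and by 2.20 at P35 (SE 0.12, adjusted *P*-value 9.68e-06), from 11.3 to 13.2 CPM in WT to 43.0 to 63.2 CPM in KO. Its partner *Relb* rose by 1.09 and 1.62 and *Map3k14*, the kinase of that pathway, by 0.95 and 1.03. *Stat3* passed at P21 (0.59) and *Socs3* at P35 (1.62). The cytokine *Tnf* was at 1 to 7 counts and *Il1b* at 0 to 10 counts per library at P35.

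Markers of the cells that can make or answer these chemokines moved in part with genotype. Of 12 macrophage markers, 5 rose at P21 (3.18% of all genes tested) and 5 at P35 (8.49%), and none fell (medians 0.54 and 0.64). Among them were *Cd68* (log2 change 1.23 and 1.70), *C1qa* (0.64 and 0.95) and *Lyz2* (0.76 and 1.01), whereas the defining marker *Adgre1* did not pass (0.45, adjusted *P*-value 0.027, and 0.60, adjusted *P*-value 0.020). Summed, the 12 markers reached 122 to 145 CPM in WT and 156 to 194 CPM in KO at P21. At P35 the sums were 133, 128, 157 and 121 CPM in WT mice against 157, 231, 215 and 195 CPM in KO mice, with KO replicate 1, low in *Ccl2* and *Ccl7*, the lowest of the KO libraries. Monocyte markers summed to 2.58 to 3.53 CPM in WT and 3.93 to 5.47 CPM in KO at P21, without overlap. At P35 their sums were 2.65, 2.81, 3.47 and 2.74 CPM in WT mice against 4.86, 7.01, 5.91 and 5.10 CPM in KO mice, again without overlap and with KO replicate 1 the lowest of its group. *Itgam* alone gave most of these sums, with P35 means of 2.09 CPM in WT and 4.70 CPM in KO. The P35 means of *Ly6c2* (0.254 in WT and 0.270 in KO), *Plac8* (0.485 and 0.503) and *Chil3* (0.0815 and 0.098) differed little. The part of macrophages and monocytes in the rise of *Ccl2*, *Ccl6* and *Ccl9* was not tested.

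**Figure D5:**
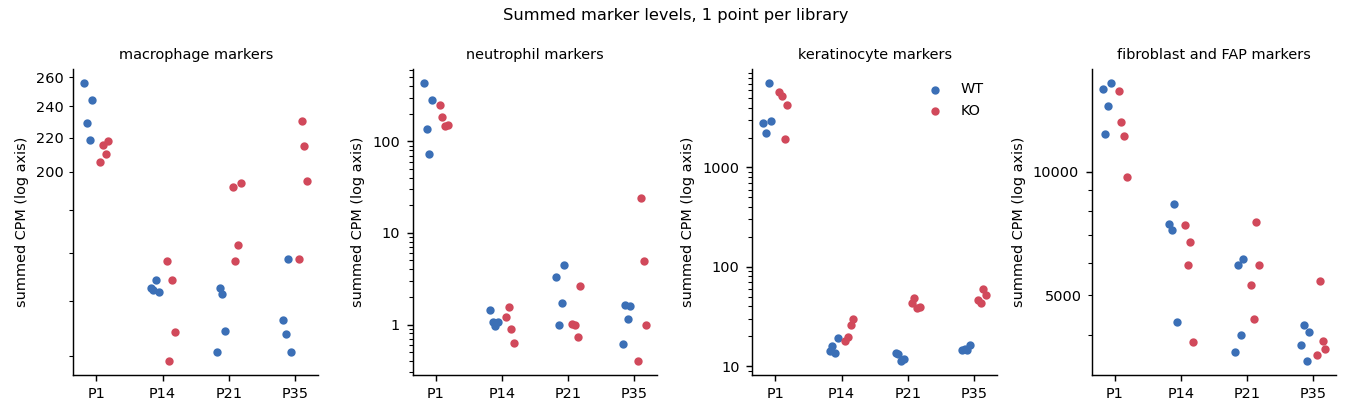
Summed CPM of the macrophage, neutrophil, keratinocyte and fibroblast marker lists (vertical log axis) by age for WT (blue) and KO (red), 1 point per library. Macrophage sums in KO lie above WT at P21 (156 to 194 against 122 to 145 CPM), neutrophil and keratinocyte sums are far higher at P1 than later, and 1 KO library stands out in neutrophil markers at P35.

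The other marker lists gave these counts at P35, on the TMM scale only, where 8.49% of all genes tested rose and 7.52% fell. Of 3 monocyte markers tested, *Itgam* rose (1.2), 0 of 3 neutrophil markers and 0 of 1 T cell marker passed, and none of the 6 eosinophil markers was tested, their sum being at most 0.245 CPM. Of 10 fibroblast markers *Mfap5* rose at P21 (1.43) and P35 (1.5). Of 6 endothelial markers *Cdh5* (-0.89) and *Tie1* (-0.78) fell, and of 6 pericyte and smooth muscle markers *Rgs5* fell (-0.62). Of 5 satellite cell markers *Calcr* (-3.15), *Pax7* (-1.43) and *Megf10* (-0.70) fell. Of 8 muscle fibre markers *Acta1* fell (-0.76). Summed, the 8 fibre markers stood at 146276 to 215824 CPM in WT and 89728 to 126775 CPM in KO at P35, without overlap. The part of this sum in the results with library totals was not tested. In the keratinocyte list *Sfn* (2.22 and 3.22), *Trp63* (2.27 and 2.30) and *Perp* (1.06 and 1.45) rose at P21 and P35, while the defining keratins *Krt5* and *Krt14* stayed at or under 0.398 CPM in every library of both ages, and no keratin passed. None of the 5 blood markers and none of the 4 sex markers tested passed.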

How the data were processed

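The authors sequenced poly(A) RNA of TA muscle and deposited RSEM expected counts per Ensembl gene, which are estimated counts that need not be whole (4.26% of the values were not). The submitters' processing notes name STAR 2.6.1, RSEM 1.2.22 and GRCm38, whereas the study's methods name another counter. The annotation and the strand setting were not given in the sources used here. Symbols were found for 54809 of 54838 genes. The counts were rounded, filtered with filterByExpr and TMM-scaled, and tested with edgeR 4.0.16 (quasi-likelihood) within each pair of groups, or over all 32 libraries for differences between ages. CPM per kb used GENCODE exon lengths. DESeq2 1.42.0 and other scalings, filters and fits were alternatives, and the test was checked on simulated data. The chemokine genes and the lists were chosen with earlier results of these data known. Other genes were named by a fixed rule: *Mtm1*, the 3 called genes with the smallest adjusted *P*-values at P21 and P35 in each list or all where at most 5 were called, defining markers, list genes at 0, and the 3 genes most correlated with each chemokine gene. One gene that the rule names is not reported here. Correlations of same-numbered deviations were 0.19 to 0.59 at P14 and -0.322 to 0.187 at the other ages. The KO library of the same number was the best match for WT replicates 1, 3 and 4 at P14. It was so for replicates 1 and 4 at P35, for replicate 1 at P21 and for none at P1. At P14 a replicate block also called 0 of the chemokine genes. Nothing states that replicates of an age share litters, and *P*-values measure the spread between these libraries. CPM ranges rest on the counts given, and depth limits *Ccl8* and *Cxcl1* most.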

Additional observations from a re-analysis of the deposited data

Results flagged for a closer look

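In 3 of the 72 sets of 4 libraries (9 genes in 8 groups) a single library stood far from the other 3, and chance alone gives about 1 in 20. *Ccl11* was at 2.32 CPM in WT P1 replicate 1, and without it the log2 difference between KO and WT at P1 was -0.26 (adjusted *P*-value 0.68 in edgeR) and the WT change from P1 to P14 was 2.55. *Cxcl1* was at 0.900 CPM in KO P35 replicate 2, and without it the log2 difference at P35 was 0.48 and the difference of the KO effect between P35 and P21 was 1.51 (adjusted *P*-values 0.22 and 0.14). *Cxcl14* was at 40.4 CPM in WT P1 replicate 3, the WT P1 library with the highest keratinocyte sum, and without it the log2 difference at P1 was 0.56 (adjusted *P*-value 0.38). The part of the marker sums in these values was not tested.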

How the results depend on the processing

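The number of the 9 genes called at P1 was 0 in edgeR (0.0442% of all genes tested) and 2 in DESeq2 (0.552%). At P21 it was 2 (4.67% of all genes tested), and 1 with RLE size factors (*Ccl9* adjusted *P*-value 0.010) or a replicate block (*Ccl9* 0.82, adjusted *P*-value 0.027). It was 3, with *Ccl6* added, with DESeq2 (adjusted *P*-value 3.82e-04), library totals (0.0023) or no filter (0.0081), and 3 at an adjusted *P*-value under 0.05. At P35 it was 5 (16% of all genes tested), and 4 with library totals, at least 10 counts per library or a replicate block. It was 6 with all 32 libraries in 1 fit and 7 at an adjusted *P*-value under 0.05. For WT P21 against P14 it was 0 (5.53% of all genes tested) and 2 with DESeq2 (8.26%). It was also 2 with all 32 libraries in 1 fit or at an adjusted *P*-value under 0.05, and 1 with library totals or no filter. The calls over all genes moved with the setting too, as given above for library totals. Their shares under the other settings are not given here, so these counts describe the settings and not the chemokine genes alone. Without 1 library at a time the counts were 3 to 6 at P35, 1 to 2 at P21, 5 to 6 for WT P14 against P1, and 0 to 1 for each later WT step. The causes were not tested. The replicate block also ended the *Cxcl14* call at P35 (-0.75) and no other call. The sign turned with library totals for *Cxcl12* at P21 (0.17), P35 (0.39) and in the difference between P35 and P21 (0.22), and for *Ccl8* in WT P14 against P1 (-0.69). *Cxcl12* near 0 also turned with the replicate block at P21 (0.038), with at least 10 counts per library at P35 (0.0048) and in the last difference (0.0018), and with no filter there (0.012). Without 1 library at a time the sign turned for *Ccl6* at P1 (-0.037 to 0.16), *Ccl11* at P14 (-0.11 to 0.15) and P21 (-0.13 to 0.30), *Cxcl12* at P21 (-0.15 to 0.26) and P35 (-0.16 to 0.045), *Ccl8* in WT P14 against P1 (-0.029 to 0.25), *Ccl7* (-0.31 to 0.18) and *Cxcl12* (-0.31 to 0.10) in WT P35 against P21, and in the differences *Ccl11* (-0.18 to 0.25) and *Cxcl12* (-0.28 to 0.13) from P14 to P21 and *Cxcl12* (-0.30 to 0.11) and *Cxcl14* (-0.021 to 0.28) from P21 to P35. None of these genes was called in the comparison named.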
